A study of Mus musculus with 6 samples.

Results

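The Nr4a nuclear receptors are a family of 3 genes, Nr4a1, Nr4a2 and Nr4a3, and all 3 were found by symbol among the 31053 genes of the deposited matrices. NR4A proteins are transcription factors of the nuclear receptor superfamily that act without a known physiological hormone, so their activity follows mainly from how much of them is made. In neurons their genes are transcribed within minutes to hours of activity, through cyclic AMP and calcium signalling to CREB and its coactivators and through MEF2 and SRF. In mouse hippocampus Nr4a genes are known for a part in long-term memory and in the memory enhancement seen with histone deacetylase inhibitors.

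Nuclei came from hippocampi of C57BL/6J male mice aged 12 weeks, with the tissue of 5 mice pooled in each library. HDACi mice were injected with 30 mg/kg of CI-994, an inhibitor of class I histone deacetylases, and Veh mice with the solvent alone, 1 h before the exposure, and all were killed 1 h after it. CFC, contextual fear conditioning, put mice in a chamber with 2 foot shocks of 0.2 mA, and Context mice were in the chamber with no shock. There were 2 HDACi-CFC libraries, 2 Veh-CFC libraries, 1 HDACi-Context library and 1 Veh-Context library, so every group had been handled and placed in the chamber, and no home-cage group is part of the comparison. The description of the library labelled Veh-Context says HDACi, while its title and treatment label say vehicle, and the title was followed. Nuclei were isolated in buffers with actinomycin D, which stops transcription.

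The matrices held 24508202 to 45570814 unique molecular identifiers (UMIs, each counting 1 captured RNA molecule) per library. After filtering, 26839 of 30323 barcodes were kept, 3573 to 5334 per library, with a median of 5368 to 6808 UMIs. Each library shared 20 to 36 barcodes with another library. Nuclei were clustered without the Nr4a genes, and clusters were named from marker genes; 8 of 28 clusters, holding 7.91% of nuclei, stayed unnamed. In each of the 6 libraries 11 classes had at least 30 nuclei, though the Subicular or cortical-like class had only 32 in HDACi-CFC replicate 1, against 105 and 89 in Veh-CFC. The tissue label adds DG to hippocampus, but CA1-, CA3- and subicular-type nuclei were present in every library.

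The genes lie on 3 chromosomes, and in GENCODE M21 (GRCm38, the assembly mm10 is built on) no other annotated gene overlaps any of them. Nr4a1 (ENSMUSG00000023034) spans chr15:101254269-101274795 on the plus strand, Nr4a2 (ENSMUSG00000026826) chr2:57106830-57124003 on the minus strand, and Nr4a3 (ENSMUSG00000028341) chr4:48045153-48086447 on the plus strand. The promoters are shown because CREB, the activity-regulated factor named above, binds the cyclic AMP response element, whose half-site is TGACG. RefSeq promoter windows of 300 bases (GRCm38.p6, from 250 bases before to 50 after the transcription start, printed 5′ to 3′ on the gene's strand) are chr15:101266596-101266895 for Nr4a1, chr2:57123954-57124253 for Nr4a2 and chr4:48045055-48045354 for Nr4a3. Capitals mark half-sites on either strand (TGACG or CGTCA).
Nr4a1: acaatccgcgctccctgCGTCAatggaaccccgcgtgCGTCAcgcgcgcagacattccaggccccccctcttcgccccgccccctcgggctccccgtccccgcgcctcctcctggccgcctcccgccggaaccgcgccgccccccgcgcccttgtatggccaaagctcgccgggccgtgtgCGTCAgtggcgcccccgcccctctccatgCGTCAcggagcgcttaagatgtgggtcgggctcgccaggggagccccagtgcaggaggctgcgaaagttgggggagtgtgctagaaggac
Nr4a2: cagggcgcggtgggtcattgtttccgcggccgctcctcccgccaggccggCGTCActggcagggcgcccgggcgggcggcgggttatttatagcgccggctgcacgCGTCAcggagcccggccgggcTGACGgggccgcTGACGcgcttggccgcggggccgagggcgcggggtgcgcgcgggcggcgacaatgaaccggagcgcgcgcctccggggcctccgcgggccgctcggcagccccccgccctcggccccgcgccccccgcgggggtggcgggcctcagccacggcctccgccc
Nr4a3: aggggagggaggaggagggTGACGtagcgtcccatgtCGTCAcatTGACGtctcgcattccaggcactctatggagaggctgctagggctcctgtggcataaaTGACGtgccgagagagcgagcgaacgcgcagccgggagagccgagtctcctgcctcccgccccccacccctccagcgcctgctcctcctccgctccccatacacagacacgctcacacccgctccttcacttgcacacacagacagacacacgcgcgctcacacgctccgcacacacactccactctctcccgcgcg
Each of the 3 windows held 4 half-sites. Counted from the start, they began at -233, -213, -69 and -40 in Nr4a1, at -200, -144, -123 and -111 in Nr4a2, and at -231, -213, -205 and -147 in Nr4a3. Of all 32851 promoter windows of the same length, 20.8% held at least 1 half-site and 0.231% held 4 or more. The full palindrome TGACGTCA, which contains the half-site on both strands, was in 1.79% of all windows and in none of the 3. The NBRE, AAAGGTCA, the element that NR4A monomers bind, was in 1.51% of all windows and also in none of the 3 (both strands searched). The windows are rich in G and C, at 72.3% in Nr4a1, 81.7% in Nr4a2 and 64.7% in Nr4a3, and a match of letters does not show a bound site.

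The 3 genes were not expressed in the same classes. Levels between classes are given as UMIs of the gene per 1000000 UMIs of the class (CPM), unscaled, over the 6 libraries. They pool HDACi and Veh libraries, so the order and the SD also hold any drug difference. In bulk sums of this kind, fewer nuclei with the RNA and less RNA per nucleus cannot be told apart. Nr4a1 had its highest mean in Subicular or cortical-like nuclei, at 58.8 ± 19.1 CPM (SD, n = 6), followed by CA1-like nuclei at 50.3 ± 15.5, Interneuron-like nuclei at 29.6 ± 5.87 and CA3-like nuclei at 29.3 ± 3.95. DG granule-like nuclei were at 7.80 ± 2.37 CPM and Astrocyte-like nuclei at 3.84 ± 2.50 CPM (n = 6 each), the bottom of the order. Neighbours in this order overlapped in their ranges throughout, but the CA1-like range of 29.2 to 68.3 CPM lay wholly above the DG granule-like range of 4.71 to 10.4 CPM.

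Nr4a2 followed a similar order among the pyramidal classes but was lowest in interneurons. It averaged 27.9 ± 15.4 CPM in Subicular or cortical-like, 25.5 ± 7.34 in CA1-like, 14.5 ± 3.69 in CA3-like and 8.58 ± 1.54 CPM in DG granule-like nuclei (SD, n = 6). Interneuron-like nuclei were lowest at 3.00 ± 1.59 CPM. Thus, with both treatments pooled, Interneuron-like nuclei ranked as number 3 of 11 classes for Nr4a1 and last for Nr4a2. In the Veh libraries alone their Nr4a1 was 22.0 to 26.7 CPM, against 23.1 to 30.8 CPM in CA3-like nuclei. Their Nr4a2 was 1.69 to 4.62 CPM there, against 0 to 3.52 CPM in Immature neuron-like nuclei, so neither place is sure in Veh. Levels are not corrected for gene length, so they are compared between classes and not between genes.

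Among the 11 classes, Nr4a3 had its highest mean in CA3-like nuclei, though unnamed cluster 23 (below) was higher. It averaged 56.7 ± 11.9 CPM in CA3-like nuclei (41.3 to 74.2 over the 6 libraries), against 22.9 ± 5.06 CPM in CA1-like nuclei (16.2 to 31.4), with no overlap between these 2 classes. Immature neuron-like nuclei stood between them at 27.9 ± 21.9 CPM, but on only 54 Nr4a3 UMIs in all, and their range of 5.53 to 63.8 CPM overlapped both. In the Veh libraries alone they were at 5.53 to 20.6 CPM, against 16.2 to 22.5 CPM in CA1-like nuclei. Subicular or cortical-like nuclei were at 22.3 ± 11.4, DG granule-like nuclei at 3.97 ± 1.67 and Interneuron-like nuclei at 3.33 ± 1.395 CPM. Microglia-, OPC-, Oligodendrocyte-, Astrocyte- and Cajal-Retzius-like nuclei were all below 5 CPM on average, each from 2 to 28 UMIs over the 6 libraries.

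**Figure D1:**
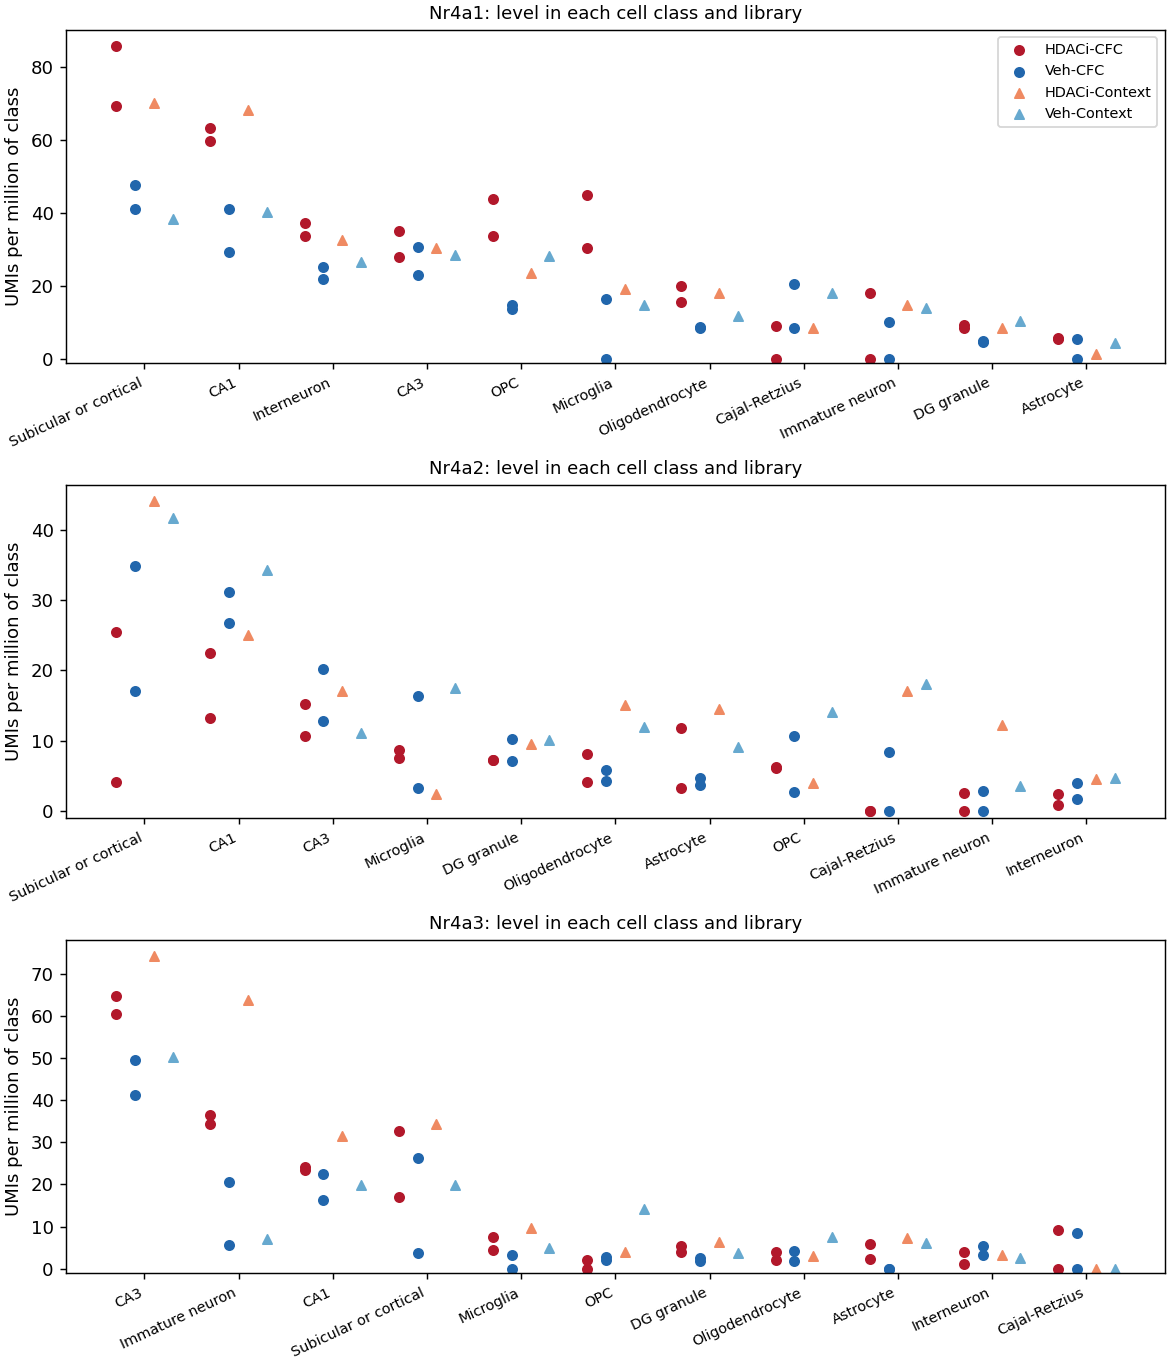
Level of each Nr4a gene (CPM, linear axis) in 11 classes of nuclei ordered by their mean; each point is 1 library. Nr4a1 and Nr4a2 are high in Subicular or cortical-like and CA1-like nuclei, Nr4a3 in CA3-like nuclei, and Interneuron-like nuclei hold Nr4a1 but little Nr4a2 or Nr4a3.

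Single clusters reached pooled levels above the mean of every named class. Unnamed cluster 15, 455 nuclei led by genes such as Rxfp1, Ldb2 and Fn1, had the highest Nr4a1 of the clusters with at least 100 nuclei, at 94.5 and 111 CPM in HDACi-CFC, 76.6 and 107 in Veh-CFC, 92.6 in HDACi-Context and 85.6 in Veh-Context. The same cluster had the highest Nr4a2, at 40.8 to 81.2 CPM over the 6 libraries, while its Nr4a3 was low, at 3.60 to 15.0 CPM. Unnamed cluster 23, 157 nuclei led by Cpne9 and Csf2rb2 among others, had the highest Nr4a3, at 57.5 to 136 CPM. The clusters of the CA1-like class differed in Nr4a1, with 62.8 CPM pooled over libraries in cluster 2, with Wfs1 among its leading genes, and 33.7 CPM in cluster 6, led by Dcn and Nov. For Nr4a2 the same 2 clusters had 24.2 and 29.0 CPM, and for Nr4a3 22.8 and 24.6 CPM.

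**Figure D2:**
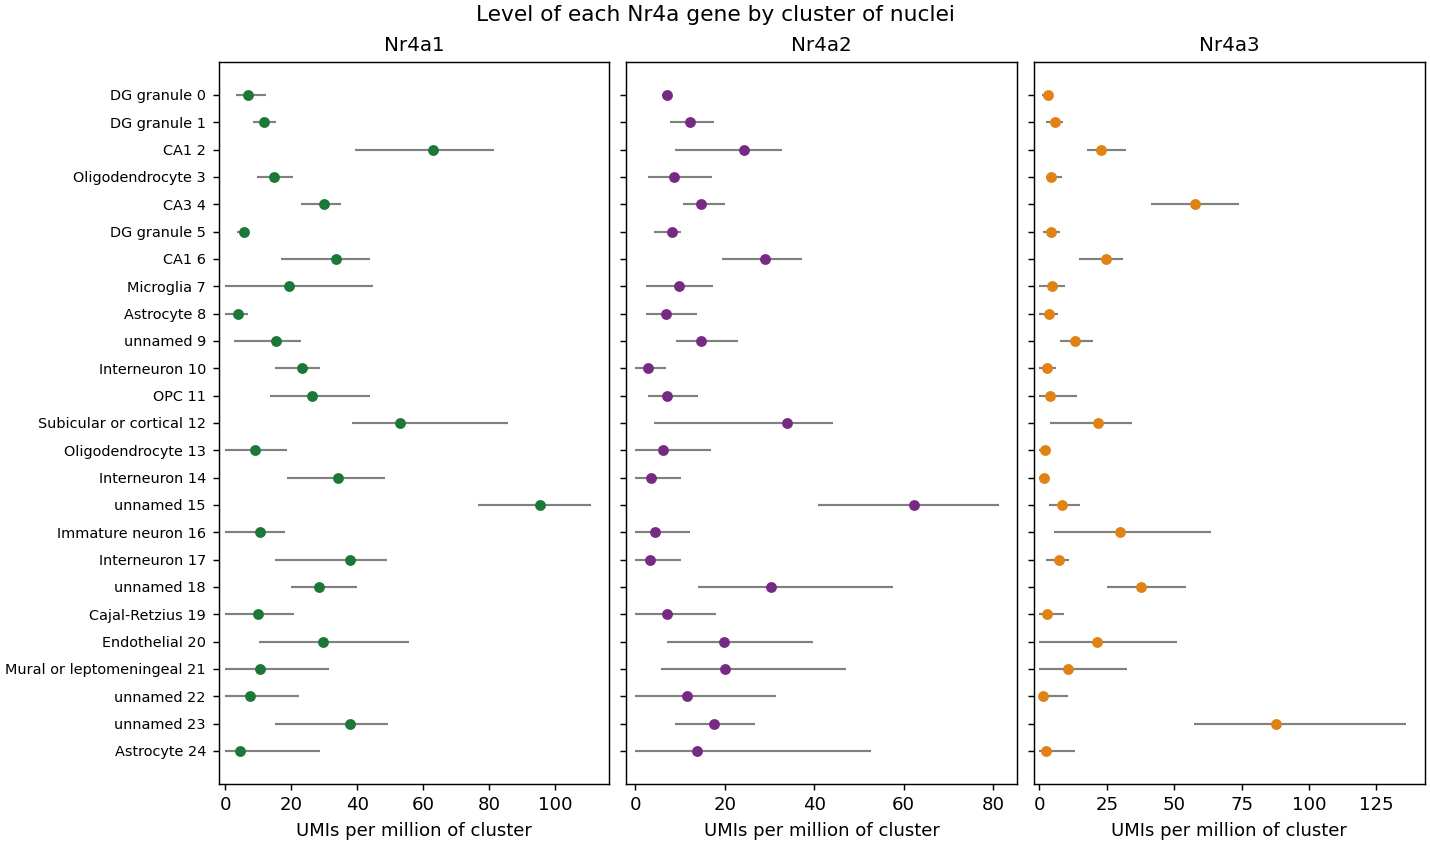
Level of each gene (CPM of the cluster) in the 25 clusters with at least 100 nuclei; points are levels pooled over libraries and lines run from the lowest to the highest library holding at least 20 nuclei. Cluster 15 stands out for Nr4a1 and Nr4a2, and clusters 23 and 4 (CA3) for Nr4a3.

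After CFC, CI-994 went with more Nr4a1 and Nr4a3, and no rise of Nr4a2 passed the test. Over all nuclei, Nr4a1 was 1.79-fold higher in HDACi-CFC than in Veh-CFC (log2 fold change 0.84, SE 0.10, adjusted p = 2.71e-05) and Nr4a3 1.73-fold higher (0.79, SE 0.11, adjusted p = 9.69e-05), while Nr4a2 did not pass the test (-0.21, 95% interval -0.52 to 0.11, adjusted p = 0.268). Called means an adjusted p below 0.05 over all genes tested in that class by edgeR's quasi-likelihood test. In this comparison 21.7% of all genes tested were called higher, so a called rise was common. Levels within a class are given as CPM after TMM scaling, which sets the bulk of genes equal between libraries, and fold changes are relative to that bulk. CPM by library sums of UMIs without TMM shift the median gene in DG granule-like nuclei by -0.36 (log2) and sums per nucleus by -0.52.

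Nr4a1, also called Nur77, was called higher in all 8 classes where it was tested, of which 2, OPC- and Microglia-like nuclei, entered the test only through the libraries where it was high and are given as UMIs below. Its level in DG granule-like nuclei was 9.72 and 10.8 CPM in HDACi-CFC, against 4.19 and 4.42 CPM in Veh-CFC. The groups did not overlap, and the fold change was 2.38 (log2 1.25, SE 0.21, adjusted p = 4.22e-05). With 2 libraries against 2, an unchanged gene has its groups apart with a probability of 0.333. The share of all genes with groups apart is not given here, so groups apart are no support by themselves. In CA1-like nuclei Nr4a1 was at 68.1 and 70.1 CPM in HDACi-CFC, against 26.3 and 36.7 CPM in Veh-CFC, a 2.18-fold difference (log2 1.12, SE 0.13, adjusted p = 5.75e-06). CA3-like nuclei had the smallest difference of the 8, with 31.5 and 38.3 CPM in HDACi-CFC against 21.3 and 27.8 CPM in Veh-CFC (log2 0.48, SE 0.17, adjusted p = 0.0408). That call was lost when HDACi-CFC replicate 2 (log2 0.31) or Veh-CFC replicate 1 (0.31) was left out, and under sums scaled to library size (0.24) or per nucleus (0.09).

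Interneuron-like nuclei had 42.2 and 38.2 CPM of Nr4a1 in HDACi-CFC, against 22.4 and 19.4 CPM in Veh-CFC (log2 0.91, SE 0.19, adjusted p = 0.00194), a call that was lost per nucleus (0.45), after thinning (0.72) and in DESeq2 (adjusted p = 0.0728). Subicular or cortical-like nuclei had 95.7 and 77.8 CPM in HDACi-CFC, against 36.9 and 42.5 CPM in Veh-CFC (log2 1.06, SE 0.26, adjusted p = 0.0164), and this call was lost in 3 of the 4 fits that left out 1 library, where it was 0.97 (Veh-CFC replicate 1 left out), 1.18 (Veh-CFC replicate 2) and 1.27 (HDACi-CFC replicate 2). Both groups were apart in each of these classes, which is no support by itself, as said above.

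In the 3 glial classes where Nr4a1 was tested, it rested on few molecules. Oligodendrocyte-like nuclei held 15 and 23 UMIs in HDACi-CFC, against 9 and 12 in Veh-CFC (log2 1.37, SE 0.37, adjusted p = 0.00838), a call that was lost per nucleus (0.88) and in DESeq2 (adjusted p = 0.178). OPC-like nuclei, the oligodendrocyte precursors, held 11 and 21 UMIs in HDACi-CFC, against 5 and 7 in Veh-CFC. Microglia-like nuclei held 12 and 14 UMIs in HDACi-CFC, against 5 and 0 in Veh-CFC. With no Veh-CFC library of either class at 10 UMIs, the gene passed the filter on low counts through the HDACi-CFC libraries, so these counts are given with no test. The share of all genes called higher was 23.8% in DG granule-like, 18.4% in CA1-like, 15.6% in CA3-like, 16.9% in Interneuron-like and 7.73% in Subicular or cortical-like nuclei. It was 20.6% in Oligodendrocyte-like, 17.2% in OPC-like and 20.8% in Microglia-like nuclei.

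Nr4a3, also called NOR-1, was called higher in 3 of 4 classes where it was tested. Its level in DG granule-like nuclei was 4.61 and 6.03 CPM in HDACi-CFC, against 1.65 and 2.28 CPM in Veh-CFC, a 2.65-fold difference (log2 1.41, SE 0.30, adjusted p = 0.000472). In CA3-like nuclei, where its level was highest of the 4 classes, it was at 72.5 and 65.9 CPM in HDACi-CFC, against 38.2 and 44.7 CPM in Veh-CFC (log2 0.70, SE 0.13, adjusted p = 0.000533). In CA1-like nuclei it was at 27.64 and 25.99 CPM in HDACi-CFC, against 14.6 and 20.1 CPM in Veh-CFC (log2 0.61, SE 0.16, adjusted p = 0.00757). The groups did not overlap in any of these 3 classes, which is no support by itself, as said for Nr4a1. The CA1-like call was lost without Veh-CFC replicate 1 (log2 0.41), under library-size (0.28) or per-nucleus scaling (0.16) and in DESeq2 (adjusted p = 0.0551), and the CA3-like call under per-nucleus scaling (0.30). In Subicular or cortical-like nuclei the Nr4a3 groups overlapped, with 8 and 12 UMIs in HDACi-CFC and 3 and 23 in Veh-CFC, and the difference was not called (log2 0.78, 95% interval -0.55 to 2.10).

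Nr4a2, also called Nurr1, was called in none of its 4 classes by edgeR, at an unadjusted p under 0.05 in 0 of them. For DG granule-like nuclei it was at 8.19 and 8.26 CPM in HDACi-CFC and at 6.34 and 8.98 CPM in Veh-CFC (log2 0.06, 95% interval -0.38 to 0.49). In CA3-like nuclei it was at 11.9 and 16.6 CPM in HDACi-CFC and at 11.8 and 18.2 CPM in Veh-CFC (log2 -0.08, interval -0.58 to 0.42). The groups overlapped in both classes, and the DG granule-like interval lies below the log2 changes fitted there for Nr4a1 and Nr4a3. In CA1-like nuclei it was at 15.1 and 24.9 CPM in HDACi-CFC and at 24.1 and 27.8 CPM in Veh-CFC (log2 -0.33, interval -0.72 to 0.07, adjusted p = 0.181). The CA1-like difference was called lower under library-size (log2 -0.66, adjusted p = 0.00928) and per-nucleus scaling (-0.78, adjusted p = 0.0166). These scalings shift the median gene of CA1-like nuclei by -0.33 and -0.45 (log2). The share of all CA1-like genes called lower under them is not given here, so these 2 calls are not read as a fall of Nr4a2 itself. It was also called lower without HDACi-CFC replicate 2 (-0.78), and was near 0 (-0.055) without HDACi-CFC replicate 1. DESeq2 called it in 0 classes.

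**Figure D3:**
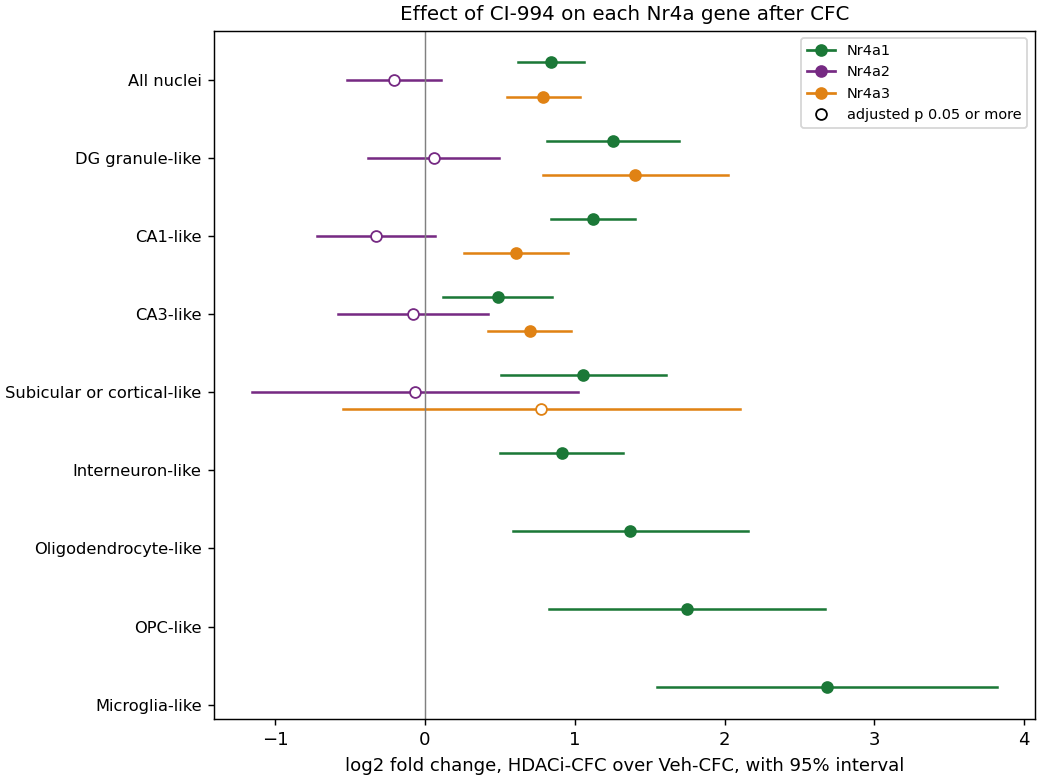
Log2 fold change of each gene, HDACi-CFC over Veh-CFC, by class; lines are 95% intervals and filled points have an adjusted p below 0.05. Nr4a1 is right of 0 in all 8 classes and over all nuclei, Nr4a3 in all 4 classes with 3 called, and every Nr4a2 interval spans 0; OPC-like and Microglia-like Nr4a1 passed the filter through the HDACi-CFC libraries alone.

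The ratio of 2 Nr4a genes inside 1 library needs no scaling between libraries, and is compared here between libraries only. Over all nuclei there were 3.05 and 2.52 UMIs of Nr4a1 for each UMI of Nr4a2 in HDACi-CFC, against 1.35 and 1.29 in Veh-CFC, and 1.88 in HDACi-Context against 1.32 in Veh-Context. The 3 HDACi libraries were above the 3 Veh libraries, and the counting intervals of the nearest, 1.72 to 2.06 in HDACi-Context and 1.18 to 1.55 in Veh-CFC replicate 1, did not meet. Nr4a3 to Nr4a2 ran the same way, at 1.98 and 1.47 in HDACi-CFC, against 0.844 and 0.830 in Veh-CFC, and 1.36 in HDACi-Context against 0.851 in Veh-Context. Nr4a1 to Nr4a3 overlapped between treatments, at 1.54 and 1.71 in HDACi-CFC, against 1.60 and 1.56 in Veh-CFC, and 1.38 in HDACi-Context against 1.55 in Veh-Context. These intervals (95%, Clopper-Pearson) cover counting error only, and no test was run on the ratios. How often ratios of other pairs of genes set the treatments apart is not given here, so such an order is no support by itself.

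By class, the Nr4a1 to Nr4a2 ratio separated the treatments in CA1-like nuclei, at 4.51 and 2.81 in HDACi-CFC, against 1.09 and 1.32 in Veh-CFC, and 2.73 in HDACi-Context against 1.18 in Veh-Context. In DG granule-like nuclei it was 1.19 and 1.31 in HDACi-CFC, against 0.660 and 0.492 in Veh-CFC. The DG granule-like Context pair did not share that order, with 0.906 in HDACi-Context and 1.02 in Veh-Context. In CA3-like nuclei the ratios were 2.64 and 2.30 in HDACi-CFC, against 1.80 and 1.53 in Veh-CFC, with 1.78 in HDACi-Context and 2.56 in Veh-Context, so the Context pair was in the opposite order. Subicular or cortical-like ratios overlapped, at 21.0 (interval 3.38 to 868, on 1 Nr4a2 UMI) and 2.72 in HDACi-CFC, 1.18 and 2.80 in Veh-CFC, 1.59 in HDACi-Context and 0.921 in Veh-Context. For Nr4a3 to Nr4a2, every HDACi library was above every Veh library in DG granule-like and CA1-like nuclei. In CA3-like nuclei it overlapped, at 6.08 and 3.96 in HDACi-CFC, 3.22 and 2.46 in Veh-CFC, 4.35 in HDACi-Context and 4.52 in Veh-Context. Ratios over all nuclei also depend on the mix of classes in each library. As said above, treatments set apart by a ratio are no support by themselves, in these classes too.

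**Figure D4:**
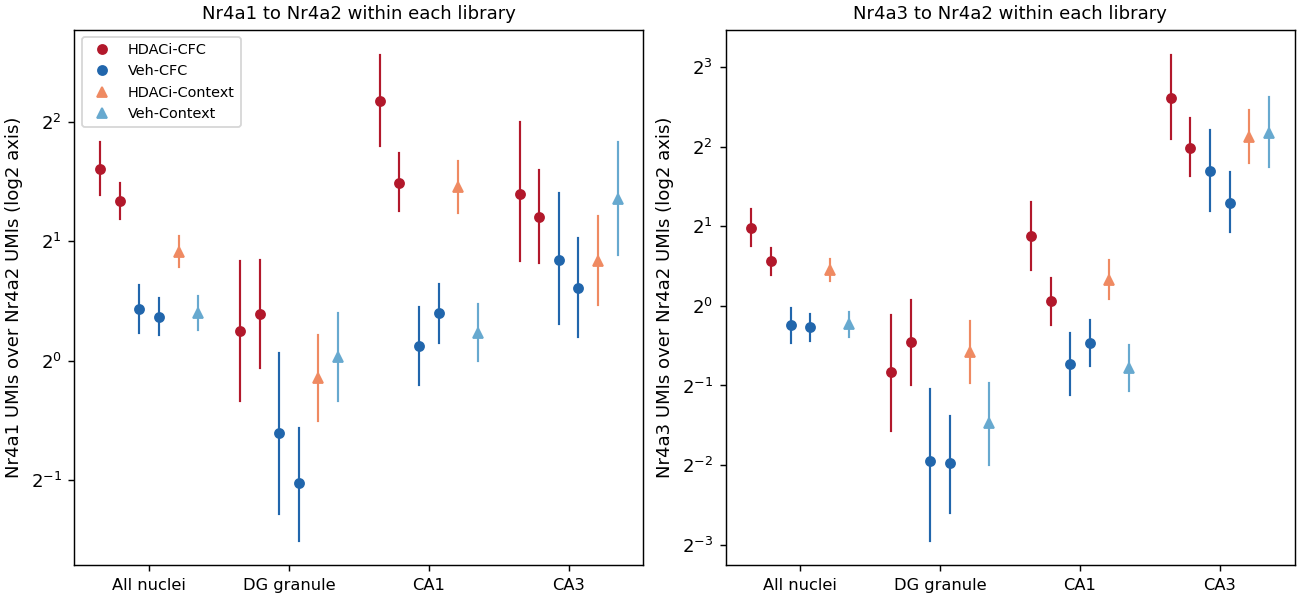
UMIs of Nr4a1 (left) and Nr4a3 (right) for each UMI of Nr4a2 in each library (log2 axis); lines are 95% Clopper-Pearson counting intervals. Over all nuclei and in CA1-like nuclei every HDACi library lies above every Veh library. How often other pairs of genes do so is not given.

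The share of nuclei with at least 1 UMI separated the groups for some pairs of gene and class and not for others. In CA1-like nuclei 33.9% (95% Clopper-Pearson interval 30.2 to 37.7) and 36.7% (33.4 to 40.1) of nuclei held Nr4a1 in HDACi-CFC, against 21.2% (18.0 to 24.7) and 28.2% (24.9 to 31.7) in Veh-CFC. Thinned to 2000 UMIs per nucleus, the shares were 9.65% and 10.9% in HDACi-CFC and 5.61% and 8.51% in Veh-CFC. In CA3-like nuclei Nr4a3 was found in 43.7% and 44.8% of nuclei in HDACi-CFC, against 33.9% and 37.0% in Veh-CFC, and after thinning in 15.6% and 11.6% against 8.42% and 8.93%. In DG granule-like nuclei Nr4a1 was found in 4.15% and 5.76% in HDACi-CFC, against 3.03% and 2.94% in Veh-CFC, and Nr4a3 in 2.21% and 3.15% against 1.23% and 1.57%. With 2 libraries against 2 the smallest two-sided exact permutation p is 0.333, which these shares reached. Nr4a1 in CA3-like nuclei overlapped, at 25.2% and 30.7% in HDACi-CFC and 22.0% and 29.1% in Veh-CFC (exact permutation p = 0.667), and its CPM overlapped under library-size scaling (28.1 and 35.1 in HDACi-CFC, 23.1 and 30.8 in Veh-CFC) but not under TMM scaling. Nr4a3 in CA1-like nuclei overlapped too, at 15.7% and 15.9% in HDACi-CFC and 11.3% and 17.6% in Veh-CFC. Thinned, CA3-like Nr4a1 was apart, at means of 6.64% in HDACi-CFC and 4.51% in Veh-CFC. Nr4a2 overlapped in DG granule-, CA1- and CA3-like nuclei (exact permutation p = 0.667 each). Thinned, its mean was lower with groups apart in DG granule-like (1.24% in HDACi-CFC, 1.64% in Veh-CFC) and CA1-like nuclei (3.18% and 4.61%). In CA3-like nuclei it was 2.14% and 2.09%.

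Detection depends on depth and on free RNA. Median depth was 8294 and 9812 UMIs in CA1-like nuclei of HDACi-CFC and 9025 and 10425.5 in Veh-CFC. In Astrocyte-like nuclei, the class with the lowest Nr4a1, 1.69% and 1.51% held it in HDACi-CFC, against 1.86% and 0 of 168 nuclei in Veh-CFC, where a count of 0 allows a share of up to 1.79% of nuclei with a UMI (3 counts of the total). Their median depths were 2715.5 and 3127 UMIs in HDACi-CFC and 3193 and 3660.5 UMIs in Veh-CFC. After thinning, the Nr4a1 shares of DG granule-like nuclei were 1.52% and 1.76% in HDACi-CFC, against 0.769% and 1.05% in Veh-CFC. Those of Astrocyte-like nuclei were 1.26% and 0.412% in HDACi-CFC, against 0.671% and 0.0% in Veh-CFC. The shares of DG granule-like nuclei were above those of Astrocyte-like nuclei within each treatment group, but the Veh-CFC shares were below the highest Astrocyte-like library.

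A few nuclei held many Nr4a2 molecules. In CA1-like nuclei, those with 5 or more Nr4a2 UMIs held 10 of 72 and 10 of 191 UMIs in HDACi-CFC, against 32 of 152 and 62 of 241 in Veh-CFC, and 0 of 241 in HDACi-Context against 38 of 280 in Veh-Context. The most in 1 nucleus was 23, in Veh-Context. For Nr4a1, nuclei with 5 or more UMIs held 5 of 325 and 86 of 537 in HDACi-CFC, against 17 of 166 and 29 of 318 in Veh-CFC, and 108 of 659 in HDACi-Context against 12 of 330 in Veh-Context. As shares of each library's Nr4a2 UMIs these overlap between the treatments, with 10 of 72 in HDACi-CFC replicate 1 above 38 of 280 in Veh-Context, and no test was run.

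The drug difference after CFC was compared between classes in joint fits against DG granule-like nuclei. Of 13 pairs of gene and class, 3 were called, all smaller than in DG granule-like nuclei. Nr4a1 differed by -0.87 (log2, SE 0.24, adjusted p = 0.00414) and Nr4a3 by -0.82 (SE 0.29, adjusted p = 0.0350) in CA3-like nuclei, and Nr4a3 by -0.90 (SE 0.29, adjusted p = 0.0283) in CA1-like nuclei. Nr4a1 in CA1-like nuclei was not called different (-0.23, 95% interval -0.65 to 0.19). The share of all genes called different from DG granule-like nuclei was 16.8% in CA1-like, 18.0% in CA3-like, 15.1% in Interneuron-like, 17.4% in Oligodendrocyte-like, 11.1% in Microglia-like, 9.14% in OPC-like and 4.01% in Subicular or cortical-like nuclei. Under library-size scaling only Nr4a1 in CA3-like nuclei remained called (-0.67, adjusted p = 0.0422), and without Veh-CFC replicate 2 none was. Both Nr4a3 calls were kept in 1 of 4 fits that left out 1 library, the one without HDACi-CFC replicate 1.

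Within the CA1-like class, both clusters fitted alone had Nr4a1 called higher, at log2 1.04 (SE 0.13) in cluster 2 and 1.18 (SE 0.21) in cluster 6. Nr4a3 was called higher in cluster 6 (1.01, SE 0.22, adjusted p = 0.00173) and not in cluster 2 (0.32, interval -0.07 to 0.71), a difference that was not tested. Cluster 15, with the highest Nr4a1, was not called (0.49, interval 0.08 to 0.91, adjusted p = 0.108). In nuclei gated one by one on markers, without clusters, Nr4a1 was at log2 1.06 in DG granule-like, 1.15 in CA1-like and 0.57 in CA3-like nuclei and Nr4a3 at 1.55, 0.70 and 0.67, all called, while Nr4a1 in Subicular or cortical-like nuclei was at 0.59 (adjusted p = 0.0698). The share of all genes called higher in these cluster and gate fits is not given here. In the main fits it was 23.8% in DG granule-like, 18.4% in CA1-like and 15.6% in CA3-like nuclei, so called rises were common.

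Markers moved with the drug too. Marker sums are CPM without TMM scaling, unlike the Nr4a levels after CFC above. Without TMM the median gene in DG granule-like nuclei shifts by -0.36 (log2), so the direction of a small marker difference depends on the scaling. In DG granule-like nuclei the summed level of the 7 DG granule markers was 5547 to 5741 CPM in HDACi-CFC and 4294 to 4330 in Veh-CFC, and that of the 6 CA1 markers 123 to 127 and 107 to 126. The 6 OPC markers were at 1326 to 1350 CPM in HDACi-CFC and 953 to 998 in Veh-CFC, the 8 astrocyte markers at 245 to 280 in HDACi-CFC and 167 to 181 in Veh-CFC, the 11 interneuron markers at 143 to 148 and 161 to 171, and no DG granule, CA1, CA3 or OPC marker was at 0. In CA1-like nuclei the 6 CA1 markers were at 6553 to 6581 CPM in HDACi-CFC and 5781 to 6199 in Veh-CFC, and the OPC markers at 844 to 961 and 678 to 723. CA3-like nuclei had the 7 CA3 markers at 4509 to 4514 CPM in HDACi-CFC and 3584 to 3721 in Veh-CFC, and the astrocyte markers at 331 to 353 and 273 to 277. Subicular or cortical-like nuclei had astrocyte markers at 915 to 1229 CPM in HDACi-CFC and 389 to 451 in Veh-CFC, with up to 4 of the 8 at 0 in a library. The part of these differences in the Nr4a results was not tested.

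CFC against Context asks whether the shock changed the genes. Nr4a1 was called in 0 of 8 classes by edgeR, with 1 at an unadjusted p under 0.05, and Nr4a3 in 0 of 5, also with 1 (DESeq2 called neither). The share of all genes at that unadjusted p is not given here. Nr4a2 was called lower after CFC in 2 of 6 classes, of which 1, Oligodendrocyte-like nuclei, is given as UMIs below. The other was Subicular or cortical-like nuclei (log2 -0.89, SE 0.29, adjusted p = 0.0414). Nr4a2 was also called lower over all nuclei (-0.34, SE 0.13, adjusted p = 0.0490). Over all nuclei Nr4a2 was at 11.4 and 15.2 CPM in HDACi-CFC and 14.3 and 17.0 in Veh-CFC, against 19.0 in HDACi-Context and 17.9 CPM in Veh-Context, so all 4 CFC libraries were below both Context libraries. The share of all genes placed this way is not given here, so this order is no support by itself. Such sums also depend on the mix of classes. Subicular or cortical-like nuclei, highest in Nr4a2 among the classes, numbered 32 and 84 in HDACi-CFC and 105 and 89 in Veh-CFC. They numbered 122 in HDACi-Context and 190 in Veh-Context, and the part of this mix was not tested. In Oligodendrocyte-like nuclei it rested on 6 UMIs in each CFC library, against 20 in HDACi-Context and 16 in Veh-Context. There the gene passed the filter on low counts only with the Context libraries included, so that call is not read as support. The calls were not stable to leaving out 1 library. The Oligodendrocyte-like call was kept in 1 of 6 such fits, without HDACi-CFC replicate 1, and was -1.10 to -1.45 in the other 5. The Subicular or cortical-like call was kept in 2 of 6, without HDACi-CFC replicate 2 or Veh-CFC replicate 1, and was -0.68 to -1.10 in the other 4. Over all nuclei it was lost without HDACi-CFC replicate 1 (-0.22), Veh-CFC replicate 1 (-0.32) or HDACi-Context (-0.18), and DESeq2 called no class.

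In DG granule-like nuclei Nr4a1 was -0.47 (log2, 95% interval -0.93 to -0.01, adjusted p = 0.0961) in CFC against Context. The value was -1.05 and called when the HDACi-Context library was left out, and 0.10 when the Veh-Context library was left out. The share of all genes called lower in CFC was 24.0% over all nuclei, 22.0% in DG granule-like, 21.1% in CA1-like, 18.0% in CA3-like, 14.6% in Interneuron-like, 10.6% in Oligodendrocyte-like, 9.12% in Subicular or cortical-like, 8.76% in Microglia-like, 7.38% in OPC-like and 4.78% in Immature neuron-like nuclei. The files name Cell Ranger 3.0.1 for the CFC and 3.0.2 for the Context libraries, and the protocol speaks of 4 pooled libraries, so exposure and preparation cannot be told apart.

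Over both exposures, Nr4a1 was called higher with CI-994 in 8 of 8 classes and Nr4a3 in 4 of 5. Of these, Microglia-like Nr4a1, at 8 UMIs in HDACi-Context and 6 in Veh-Context, passed the filter on low counts through the HDACi libraries. OPC-like Nr4a1 had 12 UMIs in HDACi-Context and 10 in Veh-Context, and fewer than 10 in each Veh-CFC library. It too needed the HDACi libraries to pass the filter. Neither call is read as support, nor is Immature neuron-like Nr4a3 (below). Nr4a2 was called in 0 of 6 classes by edgeR and at an unadjusted p under 0.05 in 0. These fits share the CFC libraries with those above. The DG granule-like Nr4a1 call (log2 0.76) was lost without HDACi-CFC replicate 2 (0.58) or Veh-CFC replicate 2 (0.62) and under library-size (0.40) and per-nucleus scaling (0.37). The CA3-like call (0.44) was lost without HDACi-CFC replicate 2 (0.33) or Veh-CFC replicate 1 (0.30), under both scalings (0.18 and 0.12) and in DESeq2. The OPC-like call was lost in 3 of 6 fits that left out 1 library (HDACi-CFC replicate 2 and both Veh-CFC replicates) and the Microglia-like call without Veh-CFC replicate 2. Nr4a3 was also called in Immature neuron-like nuclei, which the comparison after CFC did not test, where it had 6 and 14 UMIs in HDACi-CFC, against 4 and 2 in Veh-CFC, and 26 in HDACi-Context against 2 in Veh-Context. With so few UMIs in the Veh libraries the gene passed the filter there through the HDACi libraries, so its call, lost without HDACi-Context (log2 1.92), is not read as support. The share of all genes called higher was 22.2% over all nuclei, 24.8% in DG granule-like, 20.1% in CA1-like, 18.2% in CA3-like, 19.4% in Interneuron-like, 11.3% in Subicular or cortical-like, 10.7% in Immature neuron-like, 21.1% in Oligodendrocyte-like, 19.8% in OPC-like and 21.8% in Microglia-like nuclei.

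The Context pair alone, 1 library each and with no test, held the same direction for Nr4a3 in DG granule-like (2.22-fold, 95% counting interval 1.54 to 3.25), CA1-like (1.90-fold, 1.57 to 2.31) and CA3-like nuclei (1.71-fold, 1.46 to 2.01), as HDACi-Context over Veh-Context. Nr4a1 was 2.04-fold higher in CA1-like nuclei (1.79 to 2.34) but 1.06-fold in DG granule-like nuclei (0.821 to 1.36), at 9.67 CPM in HDACi-Context and 9.14 CPM in Veh-Context. Nr4a2 was 1.77-fold higher in CA3-like nuclei (1.26 to 2.52), 1.195-fold in DG granule-like (0.932 to 1.53) and 0.880-fold in CA1-like nuclei (0.738 to 1.05). The Veh-Context level of DG granule-like Nr4a1 was above the 4.19 and 4.42 CPM of Veh-CFC and near the HDACi-CFC values. The drug by exposure term was called for none of the 3 genes in any class by edgeR; 3 of 20 pairs had an unadjusted p under 0.05, DG granule-like Nr4a1 among them (log2 1.16, SE 0.32, unadjusted p = 0.000938 and adjusted p = 0.0741 by edgeR). The others were CA3-like Nr4a2 (-0.89, SE 0.38, adjusted p = 0.546) and OPC-like Nr4a1 (1.70, SE 0.85, adjusted p = 0.874). The term was not run in DESeq2. The share of all genes at an unadjusted p under 0.05 is not given here, so the 3 of 20 is a description only. The share of all genes called was 0.859% over all nuclei, 0.997% in DG granule-like, 0.475% in CA1-like, 0.289% in CA3-like, 0.149% in Interneuron-like, 0.774% in Oligodendrocyte-like, 0.0881% in Microglia-like, 0.0454% in OPC-like, 0.0273% in Subicular or cortical-like and 0.0% in Immature neuron-like nuclei.

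**Figure D5:**
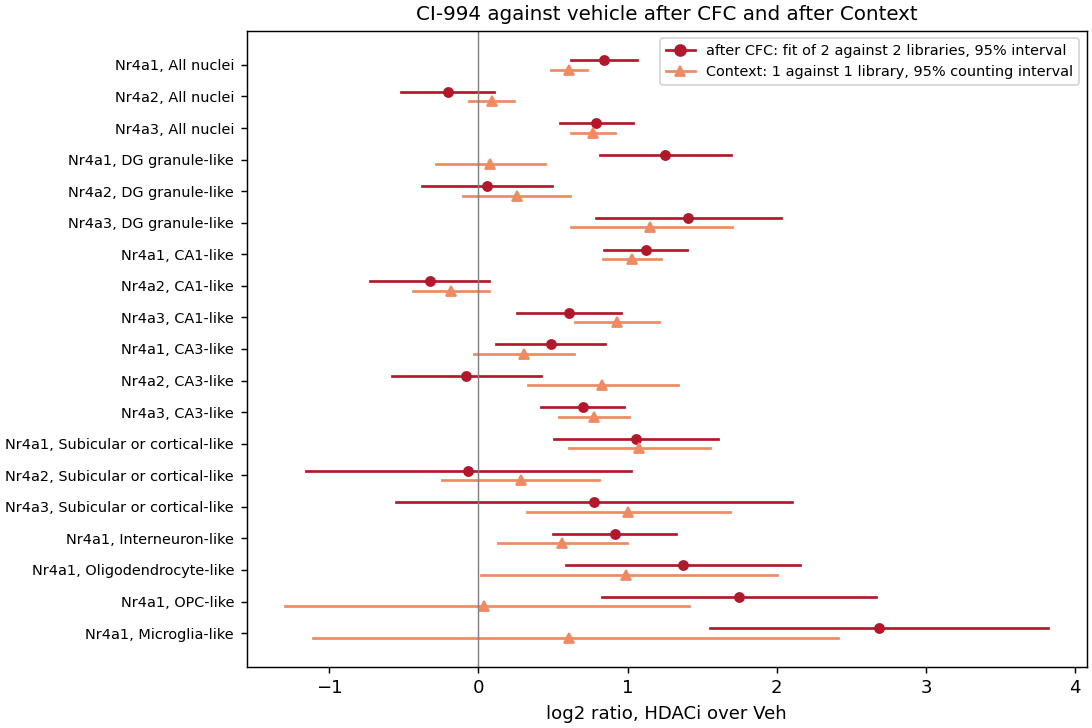
Log2 ratio of HDACi over Veh after CFC (circles, fit of 2 against 2 libraries, 95% interval) and after Context (triangles, 1 against 1 library, 95% counting interval) for each gene and class tested after CFC. DG granule-like Nr4a1 is at 1.25 after CFC and 0.08 after Context; the term for that difference was not called.

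Genes around the family were read in DG granule-like nuclei after CFC, where 23.8% of all genes were called higher and 26.4% lower with a median log2 change of 0.01. Under library-size scaling that split was 9.95% higher and 45.8% lower, so lower counts in particular depend on the scaling. Of 20 regulators of Nr4a transcription, 8 were called higher and 7 lower, with a median of -0.04. Mef2c, a MEF2 factor, was at 678 and 717 CPM in HDACi-CFC, against 334 and 322 CPM in Veh-CFC (log2 1.09), and Crtc3, a CREB coactivator, rose by 1.00. Srf fell by 1.27 and Rps6ka5, which encodes the histone kinase MSK1, fell by 1.21. Counts by list are descriptions beside the shares of all genes.

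Of 9 tested genes among 10 RXR partners and corepressors, 3 were called higher and 1 lower, with a median of 0.25. RXRs are the receptors with which NR4A1 and NR4A2 form heterodimers, and neither Rxra (0.43, adjusted p = 0.423) nor Rxrb (-0.33, adjusted p = 0.0857) was called. Hdac1, a target of CI-994, was at 149 and 137 CPM in HDACi-CFC, against 70.5 and 68.5 CPM in Veh-CFC (log2 1.04). Sin3a, a scaffold of HDAC complexes, fell by 1.30. Of the 16 genes reported downstream of NR4A receptors in mouse, 3 were called higher and 9 lower, with a median of -0.31. The 9 lower became 4 without Veh-CFC replicate 2 and 4 in DESeq2, and the 3 higher became 1 without Veh-CFC replicate 1. Bdnf, a neurotrophin, was at 180 and 180 CPM in HDACi-CFC, against 75.2 and 75.0 CPM in Veh-CFC (1.26), and Fosl2, an AP-1 factor that is also in the list of rapid genes, was higher by 0.77, while the endoplasmic reticulum chaperones Dnajb9 and Pdia4 fell by 0.93 and 0.80.

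Among 45 other nuclear receptors 32 were tested, of which 7 were called higher and 13 lower (median -0.27); the 13 became 8 without Veh-CFC replicate 2 and 7 in DESeq2. Rara, a retinoic acid receptor, was at 9.002 and 8.893 CPM in HDACi-CFC, against 1.77 and 1.60 CPM in Veh-CFC (log2 2.41), a larger fitted change than those of Nr4a1 and Nr4a3. Nr1d1, the clock receptor REV-ERB alpha, rose by 1.06, Esrra fell by 1.11 and Nr2f2 by 0.99. Of 28 rapid activity-induced genes 19 were tested, and 10 were called higher and 0 lower, with a median of 0.77 (under library-size scaling 6 and 3, median 0.41, and in DESeq2 4 and 0). Npas4, an activity-dependent factor, was at 4.42 and 2.22 CPM in HDACi-CFC, against 0.885 and 1.29 CPM in Veh-CFC (1.46), and Btg2 was higher by 1.28. Npas4 and Fosl2 lost their calls under 3 and 4 of 10 alternatives.

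Across 66 points, 11 classes in 6 libraries, the gene whose log2 CPM ran closest to that of Nr4a1 among 9659 genes was Rab3gap2 (Pearson r 0.73), followed by Cntn4 and Ociad2 (0.65 each). Nearest to Nr4a2 were Rasl11b (0.69), Zfp994 and Fgfr1op2 (0.67 each). Nearest to Nr4a3 were Camk4 (0.75), which encodes a kinase of CREB, Sv2b (0.73) and 2900026A02Rik (0.71). The points share libraries, depth and classes, so these are descriptions of shared class patterns.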

How the data were processed

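Single nuclei of mouse hippocampus were profiled by 10x Chromium 3′ v3 sequencing in 6 libraries. The deposited matrices hold raw UMI counts per gene and nucleus. Per the file headers, Cell Ranger was version 3.0.1 in CFC and version 3.0.2 in Context matrices; per the submitters' processing notes the build was mm10 and Seurat 4.0.3 was used. Whether intronic reads were counted is not given in the sources used here.

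A nucleus was used if it had 500 genes or more and no more than 5% of UMIs from mitochondrial genes, and Scrublet (expected rate 6%) took out 927 as doublets. Clusters came from scanpy 1.11.5 (2000 variable genes without the Nr4a and rapid genes, 30 components, 20 neighbours, Leiden resolution 1.0). A cluster of at least 50 nuclei was named where its markers averaged a log2 ratio to other nuclei of 0.8 or more (5 CPM added), at least 3 were found in 10% of nuclei, and its list held the most of the 10 leading genes. UMIs were summed by class and library and tested with edgeR 4.0.16 in R 4.3.3 (filterByExpr, TMM, two-sided quasi-likelihood F test, Benjamini-Hochberg over all genes tested in the class). Drug after CFC and its difference between classes (library as a block) used the 4 CFC libraries; the other fits used all 6 with the other factor as covariate. DESeq2 1.42.0, other scalings, no filter, thinning to 2000 UMIs, doublets kept, a marker gate and leaving out libraries were alternatives. The tests were checked on simulated data.

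Each library pools 5 mice, and p-values of the drug after CFC measure the spread between libraries of one group. With 1 library in each Context group, the spread in fits with a covariate also holds any drug by exposure departure. Fits between classes measure the spread left after library and class. The members, lists and tests were chosen with earlier results of these data known. Named list genes were the 2 highest and 2 lowest called with groups apart, plus the tested RXRs; 1 gene that this rule names is not reported here. Genes alike to a member had a mean of at least 3 log2 CPM. Whether same-numbered replicates share more than a number is not known (correlation of deviations 0.18 over all nuclei, with 2 pairs). Both replicate 1 CFC libraries were smaller, at 4070 barcodes in HDACi-CFC and 4147 in Veh-CFC, against 5545 and 5059 in replicate 2.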

Additional observations from a re-analysis of the deposited data

Results flagged for a closer look

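The difference that CI-994 made after CFC was itself different between classes for 3 pairs of gene and class, by a joint edgeR fit with library as a block. Nr4a3 in CA1-like nuclei was 0.61 (log2), against 1.41 in DG granule-like nuclei, and the tested difference was -0.90 (adjusted p = 0.0283). Nr4a1 in CA3-like nuclei was 0.48, against 1.25 in DG granule-like nuclei, and the difference was -0.87 (adjusted p = 0.00414). Nr4a3 in CA3-like nuclei was 0.70, against 1.41 in DG granule-like nuclei, and the difference was -0.82 (adjusted p = 0.0350). Of 13 pairs compared, the other 10 were not called. The share of all genes called different from DG granule-like nuclei was 16.8% in CA1-like and 18.0% in CA3-like nuclei, so such calls were common. Both Nr4a3 calls were kept in 1 of 4 fits that left out 1 library (without HDACi-CFC replicate 2 they were -0.60 in CA1-like and -0.50 in CA3-like nuclei) and were lost under library-size scaling, at -0.80 and -0.62. The Nr4a1 call was lost without Veh-CFC replicate 2 (-0.67). Marker levels without TMM scaling moved with the drug in DG granule-like, CA1-like and CA3-like nuclei, and their part in these differences was not tested.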

How the results depend on the processing

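Over all nuclei, in DG granule-like and in CA1-like nuclei, Nr4a1 after CFC kept its direction and its call in each alternative run. The main limits are 2 libraries against 2, 1 Context library per treatment, few UMIs in glia and a scaling that moves most genes. The cause of each change below was not tested.

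The 11 calls after CFC, 2 of them on OPC- and Microglia-like nuclei, became 6 per nucleus, 4 in DESeq2 and 3 after thinning to 2000 UMIs. Library-size scaling shifts the median gene over all nuclei by -0.22 (log2) and sums per nucleus by -0.32. Over all nuclei, Nr4a2 was -0.43 and called lower under library-size scaling and -0.45 to -0.030 with 1 library left out, called without HDACi-CFC replicate 2, while Nr4a3 was 0.46 and not called per nucleus. The 2 calls of CFC against Context, 1 of them on Oligodendrocyte-like nuclei, became 5 per nucleus, 0 in DESeq2 and 0 to 2 with 1 library left out. The 12 calls over both exposures, those on OPC-, Microglia- and Immature neuron-like nuclei among them, became 6 per nucleus. The 3 differences between classes became 1 under library-size scaling and 0 to 3 with 1 library left out. The 61 called genes of the lists became 40 in DESeq2. With the replicate number as a block, the calls after CFC stayed at 11 and those of the lists came to 65. Whether the numbers pair the libraries is not known, and 2 pairs are too few to tell.

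Nr4a2 after CFC changed sign under several settings. With all 6 libraries it was 0.26 in CA3-like and 0.15 in Subicular or cortical-like nuclei, and with doublets kept 0.062 in the second class. In DG granule-like nuclei it was -0.31 under library-size scaling, -0.45 per nucleus, -0.047 after thinning, -0.14 in cluster 1 alone and -0.44 in cluster 5 alone. With 1 library left out it ranged over -0.38 to 0.27 in CA3-like, -0.14 to 0.38 in DG granule-like and -2.27 to 0.48 in Subicular or cortical-like nuclei.

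CFC against Context per nucleus gave Nr4a1 -0.20 in CA3-like, -0.020 in OPC-like and -0.063 in Subicular or cortical-like nuclei and Nr4a2 -0.14 in CA3-like nuclei. With 1 library left out, Nr4a1 ranged over -0.18 to 0.036 in all nuclei, -0.071 to 0.088 in CA3-like, -1.05 to 0.095 in DG granule-like, -0.21 to 0.12 in Interneuron-like, -1.20 to 0.88 in Microglia-like and -0.99 to 0.69 in OPC-like nuclei. Nr4a2 ranged over -0.35 to 0.58 in CA3-like and Nr4a3 over -0.80 to 0.60 in Immature neuron-like nuclei.

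Over both exposures, Nr4a2 per nucleus was -0.071 in CA3-like, -0.29 in DG granule-like and -0.16 in Subicular or cortical-like nuclei. It was -0.22 in DG granule-like and -0.11 in Subicular or cortical-like nuclei under library-size scaling, and -0.0086 in the second class in DESeq2. With 1 library left out it ranged over -0.22 to 0.048 in all nuclei, -0.092 to 0.53 in CA3-like, -0.57 to 0.22 in Interneuron-like and -0.051 to 0.35 in Subicular or cortical-like nuclei.

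The drug by exposure term with 1 library left out ranged, for Nr4a1, over -0.13 to 0.36 in CA1-like, -0.017 to 0.36 in CA3-like and -0.11 to 0.16 in Subicular or cortical-like nuclei. For Nr4a2 it was -0.58 to 0.15 in CA1-like, -0.40 to 0.10 in DG granule-like, -0.65 to 0.34 in Oligodendrocyte-like and -2.61 to 0.20 in Subicular or cortical-like nuclei. For Nr4a3 it was -0.10 to 0.12 in all nuclei, -0.20 to 0.021 in CA3-like and -0.96 to 1.80 in Subicular or cortical-like nuclei. The difference from DG granule-like nuclei ranged over -0.36 to 0.035 for Nr4a1 in CA1-like nuclei, and in Subicular or cortical-like nuclei over -2.51 to 0.51 for Nr4a2 and -1.28 to 1.04 for Nr4a3.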
